A study of Rattus norvegicus with 16 samples.

Results

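Expression of 7 genes of brown fat and thermogenesis (Ucp1, Cidea, Elovl3, Dio2, Ppargc1a, Prdm16 and Adrb3) was examined in the adipose tissue and the lungs of 8 Brown Norway rats, a strain used as a model of allergic asthma. All rats were males aged 7 weeks and all were injected under the skin with the adjuvant Al(OH)3, weekly for 3 weeks. In 5 rats (HDM rats) the injections held 45 µg of house dust mite (HDM) and were followed by 120 µg of HDM in saline given into the nose 3 times a week for 3 weeks. The other 3 rats (control rats) received saline in place of HDM at both steps. Each rat gave 1 array of adipose tissue and 1 of lung, 16 one-color Agilent arrays in all. The genes were found by matching the RefSeq transcript of each probe to its current symbol, and where several probes matched a gene, the brightest by its mean log2 signal in the tissue was used. A probe was matched for 6 of the 7 genes, of 16678 genes with a probe on the array. Prdm16, a transcriptional regulator of brown adipocyte identity, was matched to none and has no value here. Dio2 had 2 probes, and the others had 1 each.

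Brown and beige adipocytes burn fuel to make heat. Norepinephrine from sympathetic nerves acts on the β3-adrenergic receptor (Adrb3) and raises cAMP, which promotes lipolysis and transcription of the uncoupling protein Ucp1, the carrier that lets protons back into the mitochondrial matrix without making ATP. White adipocytes of rodents also carry Adrb3, and the fat around the large vessels and the mediastinum of rodents holds brown adipocytes.

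Values are log2 signals relative to the 75th percentile of their array, so that 0 is the level of that percentile, and they compare a probe between samples but not one probe with another. A signal that the scanner software marked as well above background is called measured, and any other is a value at or near background. Differences between the groups were fitted with limma for each tissue separately, and p-values of all 45598 probes were adjusted together (Benjamini–Hochberg). A probe was called when the adjusted p lay under 0.05 and the means differed over 1.5-fold. The 75th percentile of an array was a signal between 111 and 240 in adipose tissue and between 376 and 488 in lung. All 12 adipocyte markers were measured in all adipose samples, and all 6 lung epithelial markers in all lung samples. Adipose tissue of HDM rat 1 and of control rat 1 stood apart, since all 12 epididymis and testis markers were measured in both, with summed linear levels (the 75th percentile counting as 1) of 4399 and 5806, whereas the sums of the other 6 adipose samples ran from 0.413 to 29.2. Each tissue lay on a slide of its own, with HDM rats 1 to 4 in its first row and HDM rat 5 beside the control rats in its second.

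The DNA just upstream of the genes is shown for Ucp1 and Cidea, which were high in the same lungs, and for Ppargc1a, the only one with a searched motif. RefSeq promoter windows of the GRCr8 assembly were matched for 6 of the 7 genes (Adrb3 had none), and the 250 bases before each start are printed in lower case, 5′ to 3′ on the strand of the gene, with the motif in capitals.
Ucp1, chr19:41721422-41721671, minus strand: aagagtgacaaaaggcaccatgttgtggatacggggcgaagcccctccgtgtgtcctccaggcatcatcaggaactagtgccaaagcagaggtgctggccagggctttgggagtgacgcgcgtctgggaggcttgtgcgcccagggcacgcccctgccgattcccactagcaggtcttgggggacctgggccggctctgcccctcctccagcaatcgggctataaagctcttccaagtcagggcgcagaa
Cidea, chr18:63164567-63164816, plus strand: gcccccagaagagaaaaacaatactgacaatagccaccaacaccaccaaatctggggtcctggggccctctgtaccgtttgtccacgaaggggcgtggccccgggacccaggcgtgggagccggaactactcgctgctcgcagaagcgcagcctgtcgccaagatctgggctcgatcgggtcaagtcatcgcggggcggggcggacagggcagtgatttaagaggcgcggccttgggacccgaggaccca
Ppargc1a, chr14:63634058-63634307, plus strand: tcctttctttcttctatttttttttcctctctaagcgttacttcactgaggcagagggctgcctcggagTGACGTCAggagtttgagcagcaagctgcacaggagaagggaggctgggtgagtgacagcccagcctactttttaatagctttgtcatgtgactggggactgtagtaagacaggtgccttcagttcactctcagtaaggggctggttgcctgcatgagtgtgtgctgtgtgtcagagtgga
The capitals mark a full cAMP response element, TGACGTCA, which begins 181 bases before the start of Ppargc1a, the coactivator that CREB is known to induce. Of 33469 windows of this length, 1.59% held this element. An exact search of both strands for the extended half-site of estrogen-related receptors (TNAAGGTCA), for the E-box CACGTG and for a direct repeat of AGGTCA with a single base between the copies found no match in the 6 windows, while 1.04%, 5.59% and 0.0508% of all windows held one. The last motif shares its AGGTCA with the half-site, and a match or its absence in this short window describes its letters only.

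In adipose tissue 0 of the 6 genes were called as different between HDM and control rats, beside 0% of all probes. At an unadjusted limma p below 0.05 there was 1 gene, Adrb3, beside 9.9% of all probes, and Adrb3 was also the 1 gene whose groups did not overlap, beside 6.26% of all probes. Of the probes behind the 9.9%, only 464 were higher in HDM rats, as Adrb3 was, and 4051 were lower. Ucp1 itself was at background or just above it in all 8 rats. Of the 4 genes measured in both groups, 3 had the higher mean in HDM rats, with a median log2 difference of 0.33. With this scaling the median was −0.15 over all probes and −0.05 over the brightest probe of each of 16678 genes, dim probes included.

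Adrb3, the receptor through which norepinephrine starts lipolysis and heat production in adipocytes, was measured in all 8 adipose samples. Its values were 4.28, 5.95, 5.06, 4.69 and 5.01 in HDM rats 1 to 5 and 3.40, 3.91 and 3.85 in control rats 1 to 3, so the lowest HDM rat lay above the highest control rat. The mean of HDM rats was 5.00 ± 0.62 (SD, n = 5), and that of control rats was 3.72 ± 0.28 (SD, n = 3). This was a log2 difference of 1.28 ± 0.36 (SE, 95% interval 0.46 to 2.11), or 2.43-fold, with a limma p of 0.00723 and an adjusted p of 0.355, so it did not pass the test. A two-sided exact permutation test gave p = 0.0357, where the smallest that 5 rats against 3 allow is 0.0179. HDM rat 1 and control rat 1, the samples with epididymis transcripts, had the lowest Adrb3 of their groups, and without both the log2 difference was 1.30 (limma adjusted p = 0.588). Summed adipocyte markers ranged from 2263 to 2936 in HDM rats and from 1775 to 3156 in control rats. They overlapped between the groups. Control rat 2, the sample with the highest sum, had an Adrb3 value below that of every HDM rat, and control rat 1 had the lowest sum and the lowest Adrb3. Summed macrophage and neutrophil markers did separate the groups, with 8.55 to 16.7 in HDM rats and 3.12 to 7.18 in control rats. Of these 7 genes 0 were called, and S100a8, S100a9 and Csf3r had an unadjusted limma p below 0.05, all higher in HDM rats (lowest adjusted p = 0.0853). The part of these cells, or of adipocytes, in the Adrb3 difference was not tested. In whole tissue, fewer cells of a type and less RNA per cell cannot be told apart, here and in all results that follow.

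**Figure D1:**
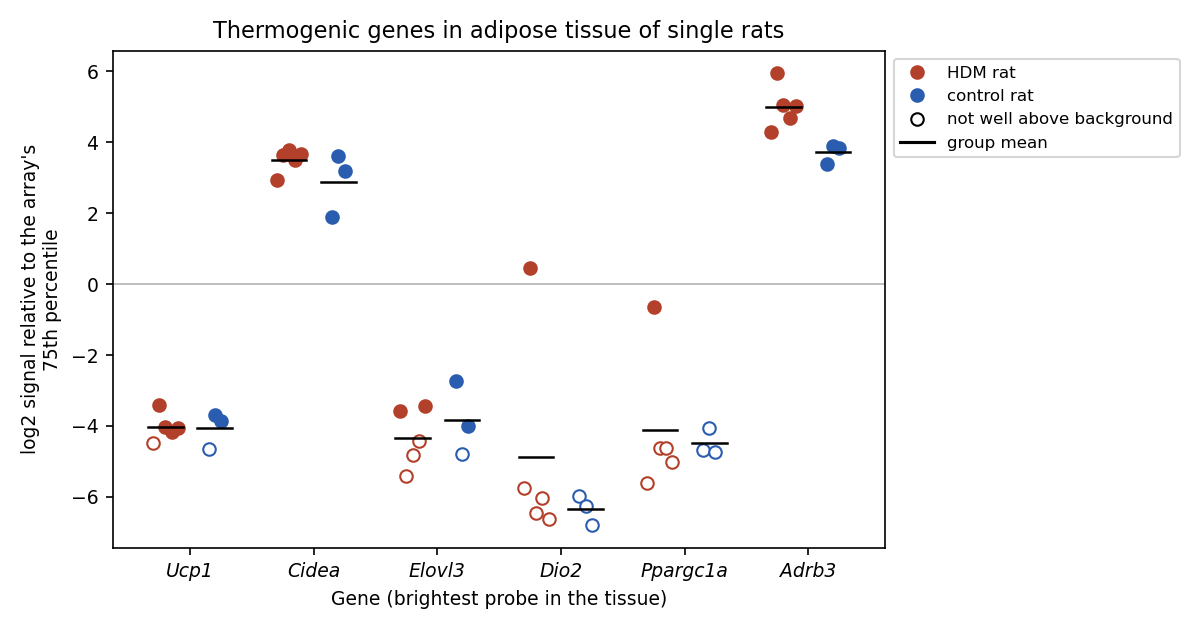
Log2 signal relative to the 75th percentile of the array (vertical axis) for the 6 genes in adipose tissue. Each point is 1 rat (red, HDM; blue, control), open points are not well above background, and bars are group means; Adrb3 is the gene whose groups do not overlap, and the single high points of Dio2 and Ppargc1a are both HDM rat 2.

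Genes whose profile over the 8 adipose samples lay closest to that of Adrb3, by the root mean square difference of centered log2 values among 10827 genes measured in at least 6 samples, were Tmeff1, Peg12, Ppp2r3a, Ddhd1 and Abcc3, with differences from 0.227 to 0.347. All 5 were lowest in control rat 1 and highest in HDM rat 2, as Adrb3 was, which follows largely from how they were chosen. Tmeff1, which encodes a transmembrane protein with a follistatin module, was −0.34, 1.30, 0.44, 0.21 and 0.09 in HDM rats 1 to 5 and −0.96, −0.20 and −0.56 in control rats 1 to 3. None of the 5 is a member of the lists of brown fat genes used here.

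Cidea, a lipid droplet protein abundant in brown adipocytes, was measured in all 8 adipose samples. It was 2.95, 3.65, 3.77, 3.51 and 3.68 in HDM rats and 1.88, 3.60 and 3.19 in control rats. Control rat 1 was the low sample and control rat 2 lay among the HDM rats. The log2 difference of 0.62 ± 0.39 (SE) did not pass (limma adjusted p = 0.667), and without control rat 1 it was 0.12.

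Ucp1, the uncoupling protein, was −4.47, −3.42, −4.02, −4.17 and −4.06 in HDM rats and −4.66, −3.70 and −3.85 in control rats. It was measured in 4 of 5 HDM rats and in 2 of 3 control rats, just above the dimmest signals counted as measured, and all 8 values lay within 1.24 log2 units. The log2 difference was 0.04 ± 0.30 (SE, 95% interval −0.65 to 0.74; limma adjusted p = 0.966).

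Elovl3, the fatty acid elongase of brown fat and skin, was −3.59, −5.42, −4.82, −4.43 and −3.43 in HDM rats and −2.74, −4.79 and −4.00 in control rats, and was measured in 2 samples of each group. The highest sample was control rat 1. The samples in which it was measured, HDM rats 1 and 5 and control rats 1 and 3, were those with the highest sums of epididymis and testis markers. The part of these transcripts in the Elovl3 signal was not tested. The log2 difference was −0.49 ± 0.59 (SE; limma adjusted p = 0.82), and without control rat 1 it was 0.06.

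Dio2, the deiodinase that makes active thyroid hormone within brown adipocytes, stood well above background in the adipose tissue of HDM rat 2 alone. The brighter of its probes read 0.46 in HDM rat 2, and from −6.63 to −5.75 in the other HDM rats and from −6.80 to −5.97 in control rats. Its other probe was not well above background in any adipose sample and read −5.89 in HDM rat 2. Ppargc1a, the coactivator of mitochondrial biogenesis, showed the same picture, with −0.64 in HDM rat 2 and with values from −5.61 to −4.06 in the other 7 samples, none of them measured. That array held 1224 spots marked as outliers, against 355 to 444 on the other adipose arrays, and the part of this in both values was not tested. No fold is given for Dio2 and Ppargc1a in adipose tissue, since the mean of HDM rats did not exceed the background limit of the control arrays.

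In lung 0 of the 6 genes were called, beside 0.855% of all probes. At an unadjusted limma p below 0.05 there was 1 gene, Dio2, beside 10.2% of all probes, and in 0 genes did the groups not overlap, beside 9.61% of all probes. The main feature of the lungs was a spread between rats of both groups, in which Ucp1, Adrb3 and Cidea were high in HDM rats 1, 2 and 5 and in control rat 3. Of the 5 genes measured in both groups, 4 had the higher mean in HDM rats, with a median log2 difference of 0.39. The median was 0.00 over all probes and −0.01 over the brightest probe of each gene.

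Ucp1 in lung was 2.30, 2.41, −4.08, −6.39 and 2.67 in HDM rats 1 to 5 and −4.66, −5.73 and 1.13 in control rats 1 to 3. The values fell into a high and a low set, with an empty interval of 5.21 log2 units, or 37-fold, between −4.08 (HDM rat 3) and 1.13 (control rat 3). In HDM rat 4 and control rat 2 Ucp1 was not well above background. Between HDM rat 5 and HDM rat 4 it differed at least 296-fold, counted from the background limit of the lower array. The group means of −0.62 ± 4.30 (SD, n = 5) and −3.09 ± 3.69 (SD, n = 3) differed by 2.47 ± 2.61 (SE, 95% interval −3.56 to 8.50), with a limma adjusted p of 0.902 and a two-sided exact permutation p of 0.375. Within the second slide row, HDM rat 5 against the 3 control rats, the difference was 5.76 (limma adjusted p = 0.612). A difference between HDM and control rats was thus not detectable against this spread.

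Adrb3 in lung was −1.90, −0.98, −4.98, −4.78 and −0.10 in HDM rats and −5.68, −5.70 and −3.07 in control rats, and was measured in all HDM rats and in 1 of 3 control rats. The 4 highest rats were the ones that were high for Ucp1. Mean values differed by 2.27 ± 1.28 log2 units (SE, 95% interval −0.70 to 5.23; limma adjusted p = 0.668), and by 4.72 within the second slide row (limma adjusted p = 0.416). Cidea in lung was 0.67, 0.77, −0.04, −0.72 and 1.01 in HDM rats and −0.30, −0.34 and 0.50 in control rats, measured in all 8. Its order was again led by HDM rats 5, 2 and 1 and control rat 3, over a narrower range of 1.72 log2 units, and the group difference was 0.39 ± 0.41 (SE; limma adjusted p = 0.906).

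**Figure D2:**
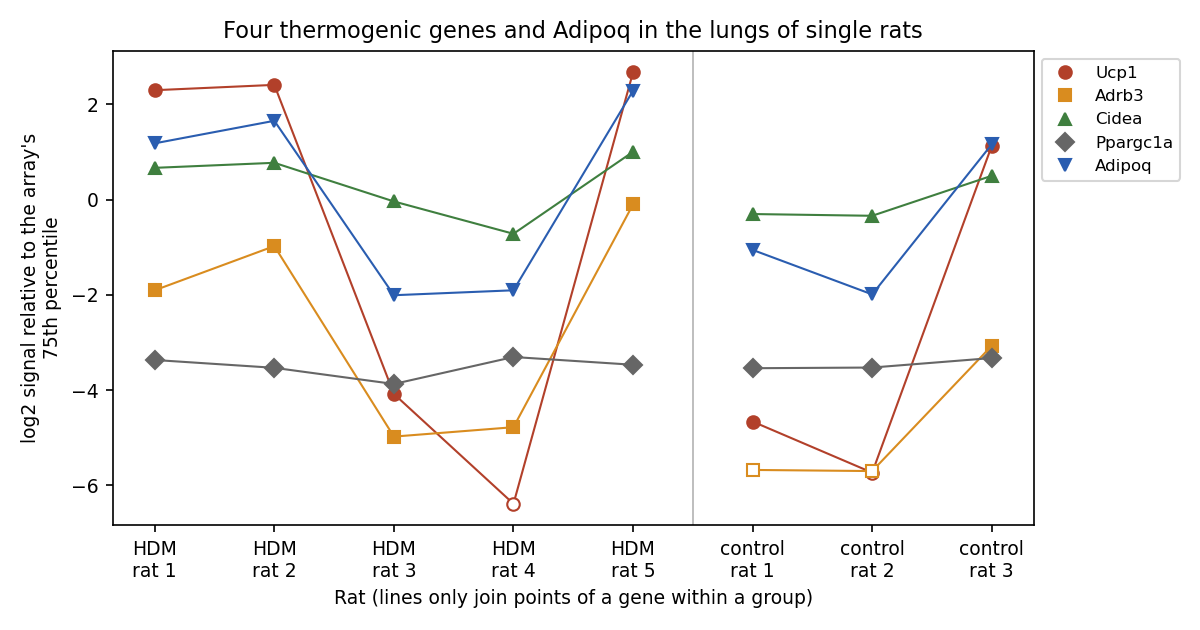
Log2 signal relative to the 75th percentile of the array (vertical axis) in the lungs of each rat (horizontal axis) for Ucp1, Adrb3, Cidea and Ppargc1a and for the adipocyte marker Adipoq; open points are not well above background, and heights of different genes are not comparable. Ucp1, Adrb3, Cidea and Adipoq are high in HDM rats 1, 2 and 5 and control rat 3, and Ppargc1a is flat.

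Among 12413 genes measured in at least 6 lungs, those with the profile most like that of Ucp1 over the 8 rats were Adrb3, Adipoq, Alb, Pck1 and Thrsp, with root mean square differences from 1.98 to 2.26. For Adrb3 they were Thrsp, Adipoq, Alb, Car3 and Slc36a2, with differences from 0.727 to 1.05. Adipoq, the adipocyte hormone adiponectin, was 1.18, 1.66, −2.01, −1.90 and 2.29 in HDM rats and −1.06, −1.99 and 1.16 in control rats. Thrsp, a nuclear protein of lipid synthesis, was −0.06, 0.57, −2.73, −3.15 and 1.12 in HDM rats and −2.11, −2.82 and −0.61 in control rats. Pck1, which feeds glycerol synthesis in fat, was −1.58, −0.70, −3.77, −4.74 and −0.99 in HDM rats and −3.20, −4.63 and −0.71 in control rats. In all of these genes HDM rats 1, 2 and 5 and control rat 3 were the 4 highest, and the same held for Alb, Car3 and Slc36a2. As the genes were chosen for the closeness of their profiles, this shared order follows largely from the choice.

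Some markers of adipocytes and of cardiac muscle were high in the same lungs as Ucp1. For 7 of the 12 adipocyte markers, 3 of the 8 cardiac markers and 0 of the 10 skeletal muscle markers with a probe, HDM rats 1, 2 and 5 and control rat 3 were the 4 highest lungs. The other 5 adipocyte markers, Pparg, Lipe, Pnpla2, Lpl and Retn, were measured in all lungs and had another order, and Pparg was lower in every HDM lung than in every control lung. Of the 12 adipocyte markers, 10 were measured in all 8 lungs, Lep in 5 and Plin1 in 2, and the summed level was 37.9, 41.8, 26.4, 26.3 and 54.6 in HDM rats and 29.6, 25.2 and 39.5 in control rats. HDM rat 5 was highest in 9 of the 12. Summed cardiac markers, all 8 measured in every lung, were 157, 163, 85.3, 79.8 and 306 in HDM rats and 179, 134 and 283 in control rats. Skeletal muscle markers summed to 12.9, 12.01, 4.95, 7.01 and 26.5 in HDM rats and 13.9, 10.7 and 24.8 in control rats. HDM rat 5 and control rat 3 thus had the highest and HDM rats 3 and 4 the lowest sums of both muscle lists. The skeletal sum came mostly from Mb (4.31 in HDM rat 5, 4.23 in control rat 3) and Ckm (2.09 and 1.95). Of the same list, Myh1, Myh2 and Myh4 were measured in 0, 1 and 4 lungs. Control rat 1 had more cardiac marker signal than HDM rats 1 and 2 but little Ucp1. Lung epithelial markers summed to between 1357 and 1651 in all lungs. The part of adipocytes or of muscle in the Ucp1, Adrb3 and Cidea signals was not tested. Macrophage and neutrophil markers, by contrast, had sums from 132 to 278 in HDM lungs and from 16.04 to 18.5 in control lungs, with 4 of 7 called higher, and did not follow Ucp1.

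Ppargc1a was flat in lung. It was −3.37, −3.53, −3.87, −3.30 and −3.47 in HDM rats and −3.54, −3.53 and −3.33 in control rats, measured in all 8. The log2 difference was −0.04 ± 0.15 (SE, 95% interval −0.39 to 0.30; limma adjusted p = 1), and the highest value was that of HDM rat 4, in which Ucp1 was lowest.

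Elovl3 in lung was −5.48, −4.57, −3.46, −5.45 and −4.67 in HDM rats and −4.74, −5.13 and −4.63 in control rats, measured in 7 of 8. Its highest sample was HDM rat 3, one of the lungs with low Ucp1, and the group difference was 0.10 ± 0.45 (SE; limma adjusted p = 1). Dpys, Or12d14c, LOC103691645, Cacng2 and Cep126 had the closest profiles. All were highest in HDM rat 3, which again follows largely from the choice, and, like Elovl3, dim in every lung (from −5.81 to −2.89).

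Dio2 in lung was measured in HDM rat 1 alone with the brighter probe, which read −5.34, −5.72, −5.70, −6.01 and −5.60 in HDM rats and −6.73, −7.79 and −5.71 in control rats. The other probe was measured in HDM rats 1 and 4, and read from −6.35 to −5.17 in HDM rats and from −7.47 to −6.32 in control rats. The limma p was 0.032 for the brighter probe (adjusted p = 0.411) and 0.037 for the other (adjusted p = 0.44), with means of −5.68 and −5.75 in HDM rats and −6.74 and −6.71 in control rats. As the means of HDM rats did not exceed the background limit of the control arrays, no fold is given.

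**Figure D3:**
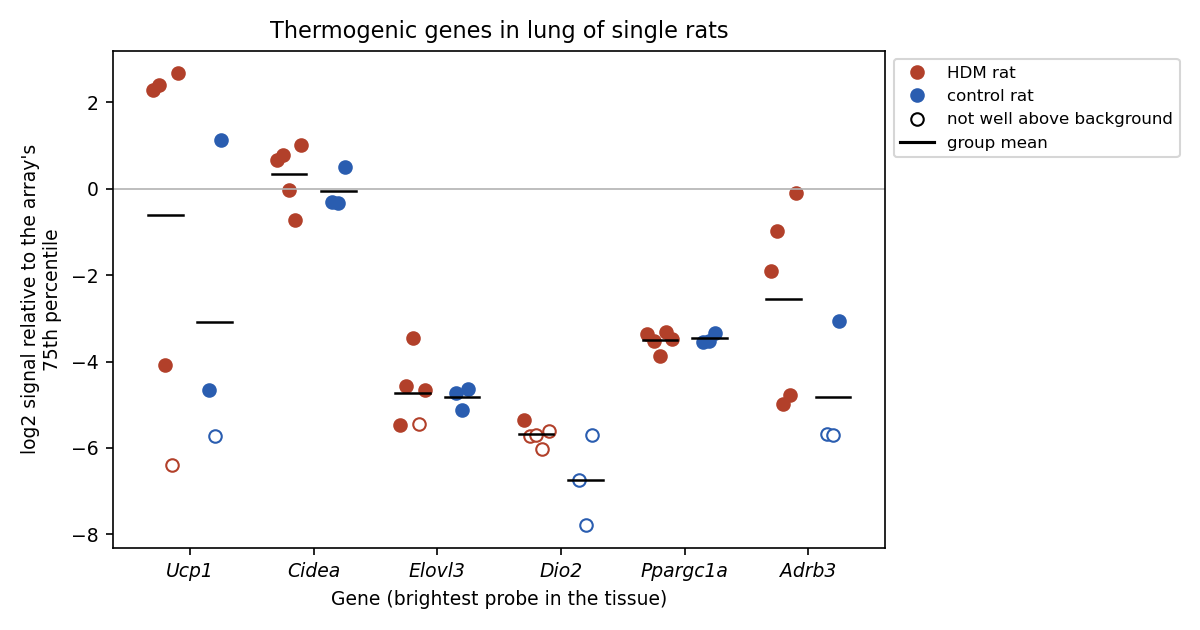
Log2 signal relative to the 75th percentile of the array (vertical axis) for the 6 genes in lung. Each point is 1 rat (red, HDM; blue, control), open points are not well above background, and bars are group means; Ucp1 and Adrb3 spread widely within both groups, and Ppargc1a varies by 0.57 log2 units in all.

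**Figure D4:**
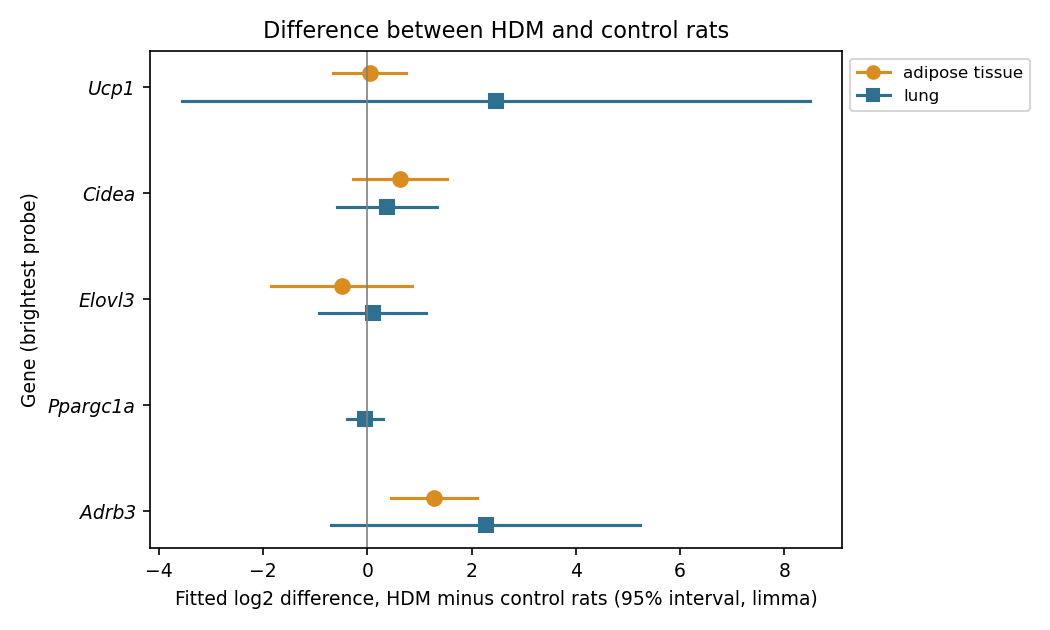
Fitted log2 difference between HDM and control rats (horizontal axis) with its 95% interval from limma, in adipose tissue (circles) and lung (squares). Dio2 and the adipose value of Ppargc1a, which were measured on 1 array only, are left out; the interval of Adrb3 in adipose tissue is the one that does not reach 0.

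Set side by side, the difference between HDM and control rats was 1.28 in adipose tissue and 2.27 in lung for Adrb3, 0.62 and 0.39 for Cidea, 0.04 and 2.47 for Ucp1, and −0.49 and 0.10 for Elovl3. Tested on the difference between the 2 samples of each rat, with the probe of each gene that was brightest in adipose tissue, 0 of the 6 genes differed in their change between the tissues (limma adjusted p from 0.826 to 0.941), beside 0.00219% of all probes. For these probes the lowest unadjusted limma p was 0.371, for Ucp1, and the other probe of Dio2 gave 0.167 (adjusted p = 0.729).

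The level between the tissues differed for 2 of the 6 genes, Adrb3 and Cidea, beside 54.3% of all probes. Tissue and slide cannot be told apart in this comparison. Adrb3 was higher in adipose tissue in 8 of 8 rats, by 8.04 ± 0.61 log2 units (SE), or 263-fold (limma adjusted p = 2.45e-05). As 2 of the 8 lungs, those of control rats 1 and 2, were not well above background, the size of this fold rests in part on values at background, and with normexp the difference was 6.02 log2 units. Cidea was higher in adipose tissue in 8 of 8 rats as well, by 3.06 ± 0.28 (SE), or 8.32-fold (limma adjusted p = 6.04e-05). Ucp1 went the other way in 5 of 8 rats, among them the 4 lungs with high values. The remaining rat was control rat 1, where both tissues read −4.66 and the adipose value was not well above background. The mean of Ucp1 was 2.20 ± 1.28 log2 units (SE) lower in adipose tissue, which did not pass (limma adjusted p = 0.161). In HDM rats 1, 2 and 5 and control rat 3 the Ucp1 signal of the lung thus exceeded that of the adipose tissue of the same rat. For Ppargc1a the lung value was higher in 7 of 8 rats, with HDM rat 2 as the exception. The mean difference of −0.81 did not pass (limma adjusted p = 0.21), but without HDM rat 2 it was −1.25 and passed (limma adjusted p = 0.00165). As Ppargc1a was not well above background in the other adipose samples, this value has no fold.

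Lists of other thermogenic genes held 116 genes with a probe, namely relatives of the 7 genes, other genes of brown and beige adipocytes, transcriptional regulators, adrenergic signaling, secreted regulators, and futile and creatine cycles. In adipose tissue 0 of them were called and 4 had an unadjusted limma p below 0.05, 1 higher and 3 lower in HDM rats. This is 3.45% of them beside 9.9% of all probes, most of which were lower in HDM rats. In lung 0 were called and 21 had an unadjusted limma p below 0.05 (18.1%, beside 10.2% of all probes), 8 higher and 13 lower in HDM rats. The shares called over all probes were those given above, 0% in adipose tissue and 0.855% in lung.

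Ucp3, the uncoupling protein of muscle and brown fat, was the gene of these lists with the smallest p in adipose tissue. It was 0.59, 0.87, 1.21, 0.07 and 0.63 in HDM rats and −0.77, 0.00 and −1.28 in control rats, so the groups did not overlap. The log2 difference was 1.36 ± 0.34 (SE; limma adjusted p = 0.322). Summed skeletal muscle markers in adipose tissue overlapped, with 1.76 to 2.71 in HDM rats and 2.28 to 2.42 in control rats. Ucp2, the broadly expressed relative, had differences of −0.16 ± 0.27 (SE) in adipose tissue and 0.05 ± 0.18 (SE) in lung, and Ucp3 in lung one of 0.23 ± 0.13 (SE). The other 3 genes at an unadjusted p below 0.05 in adipose tissue, Alpl, Ckmt2 and Esrrb, had lower means in HDM rats and were measured in 3, 1 and 0 of the 8 samples. Alpl was measured in HDM rat 1 and control rats 1 and 3, the samples with the highest sums of epididymis and testis markers.

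In lung, Slc6a2, the transporter that takes norepinephrine back up, was −4.88, −5.15, −5.48, −5.22 and −4.84 in HDM rats and −4.11, −4.56 and −3.66 in control rats. It was lower in all HDM rats, and its probe was not well above background in HDM rats 2 and 3. The log2 difference was −1.002 ± 0.229 (SE; limma adjusted p = 0.119). Slc6a2 was called when dim probes were left out (limma adjusted p = 0.0416) and when p-values were adjusted over probes past 1.5-fold alone (limma adjusted p = 0.0137). It passed the filter on dim probes only through the control rats, where it was higher. The other adjustment chose its probes by the difference under test. Neither call is therefore separate support, and with normexp the difference was −0.22 (limma adjusted p = 0.703). Pparg, the master regulator of adipocyte differentiation, which alveolar macrophages also express, differed by −0.49 ± 0.11 (SE; limma adjusted p = 0.119), and Pprc1, a relative of Ppargc1a, by −0.47 ± 0.11 (SE; limma adjusted p = 0.131). The thyroid hormone receptors Thra and Thrb had differences of 0.25 and 0.34, and the glycerol kinase Gk one of 0.58, with HDM rats above control rats in each and adjusted limma p-values of 0.336, 0.329 and 0.236. As the groups did not overlap in any of these 6 genes, the 4 lungs with high Ucp1, which came from both groups, could not be their 4 highest. Tmem26, of the brown and beige adipocyte list, differed by −0.66 ± 0.17 (SE; limma adjusted p = 0.175). Npr3, of the secreted regulators, differed by −0.61 ± 0.19 (SE; limma adjusted p = 0.286). Both were lower in every HDM lung than in every control lung. Each was called under 1 alternative, and Tmem26 also with 1 rat left out. Aspg, a gene enriched in brown fat, was measured in the lungs of HDM rats 1, 2 and 5 only. Other genes of its list differed in pattern. Ebf2 and Plin5 were highest in the 4 lungs with high Ucp1, though neither was measured in every lung. Otop1 was highest in control rat 1, one of the lungs with low Ucp1. The genes of this list that shared the order of Ucp1 were not counted. Zic1 was measured in HDM rats 1 and 3 and control rats 1 and 2, and was lowest in HDM rat 5. Lhx8 was measured in no lung.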

How the data were processed

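RNA of lung and adipose tissue from 8 rats was hybridized to 16 one-color arrays, and the labels gave the rat and tissue of each array. Spot intensities were deposited by the authors on a linear scale, extracted and background-subtracted with Feature Extraction 12.0.3.1. Beside them the authors deposited log2 values made in GeneSpring, which served as an alternative. Months stand in place of values in 39 of these cells, which were treated as missing.

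Control spots and spots marked as outliers were dropped, the log2 signals of repeated spots were averaged by probe, and each array was scaled to its 75th percentile. Dim probes were kept. Groups were compared with limma 3.58.1 in R 4.3.3 (data.table, version 1.17.8, jsonlite 2.0.0) on all 45598 probes, and single values also with two-sided exact permutation tests over 56 splits. Tissues were compared on the difference between the 2 samples of each rat, a pairing given by the labels. The fits were tested on simulated data. Plots were made with matplotlib 3.10.9 (Python 3.11.15).

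The alternatives were the t-test named in the methods, an adjustment limited to probes past 1.5-fold, other scalings, the deposited table, a filter on dim probes, array weights, the slide row or the replicate number as a block, a joint fit of both tissues, the mean of all probes of a gene and each rat left out. For normexp (offset 50) the median signal and the local background of each spot were used in place of the planned mean signal. After the data were seen, a comparison within slide row 2 and one without the 2 adipose samples that hold epididymis transcripts were added. The genes, the lists and the rule for naming genes were chosen with earlier results of these data known. That rule named every probe of the 7 genes, the genes of each list with the smallest p (4 in adipose tissue, 3 in lung), Ucp2 and Ucp3, at most 3 genes of a marker list, and the 5 nearest profiles of a gene that spanned over 2 log2 units. A further gene of the lists is not reported here. Lep, Plin1, Lipe, Pnpla2, Lpl, Retn, Ebf2, Plin5, Otop1, Zic1, Lhx8, Myh1, Myh2 and Myh4 in lung were named after their values were seen. Not every gene that the rule named is described above. Precision is limited by the number of arrays.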

Additional observations from a re-analysis of the deposited data

Results flagged for a closer look

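Among the 5 HDM rats, 2 values in adipose tissue lay far from the rest, both of HDM rat 2, when each of the 14 sets of HDM values (7 probes in 2 tissues) was checked with Dixon's ratio. For the brighter Dio2 probe, the gap between 0.46 and the next HDM rat took up 0.876 of the range of the group. For Ppargc1a, the gap between −0.64 and the next HDM rat took up 0.798. The critical ratio for 5 samples is 0.71, and chance alone passes it in about 1 in 20 groups.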

How the results depend on the processing

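In adipose tissue and in lung 0 of the 6 genes were called under any alternative run or with any rat left out, and 0 differed in their change between the tissues. Adrb3 in adipose tissue kept its sign throughout, with log2 differences from 1.08 to 1.58 (limma adjusted p from 0.0853 to 0.975) over the settings and from 1.04 to 1.46 with a rat left out. Adrb3 and Cidea differed in level between the tissues in every setting, and 5 genes did with normexp, which added Elovl3 (0.93), Dio2 (1.15) and Ppargc1a (0.62, a reversed sign). Median scaling moved the median log2 difference of all adipose probes from −0.15 to 0.14, and Adrb3 was then 1.58 and Cidea 0.92.

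Signs turned in values that passed no test, and the cause was not tested. In adipose tissue Ucp1 became −0.0090 with the percentile taken over probes well above background, −0.14 with normexp, −0.27 with array weights and −0.14 without the 2 samples that hold epididymis transcripts. Array weights gave −0.36 for Ppargc1a and 0.37 for Elovl3 in adipose tissue, and 0.0051 and −0.014 in lung. With the slide row as a block, as within row 2, Ppargc1a was −0.54, Dio2 −0.29 and Elovl3 0.41 in adipose tissue, where HDM rat 5 is the only HDM rat. Quantile normalization gave 0.027 for Esrrb in adipose tissue and −0.015 for the tissue difference of Dio2. The adipose minus lung difference in change was 0.25 for Adrb3 with normexp and −0.81 for Dio2 with the probe brightest in lung. With each rat left out in turn, adipose values ran from −0.25 to 0.23 for Ucp1, from −0.48 to 0.76 for Ppargc1a and from −0.97 to 0.060 for Elovl3, and lung values from −0.095 to 0.046 for Ppargc1a and from −0.21 to 0.29 for Elovl3. The tissue difference of Dio2 ran from −0.13 to 0.83, and the difference in change from −0.14 to 0.74 for Cidea, from −0.44 to 0.84 for Ppargc1a and from −0.98 to 0.94 for Dio2. The lung differences of Ucp1 and Adrb3 kept their sign but not their size. They ran from 1.81 (normexp) to 5.76 (the slide row as a block) for Ucp1 and from 1.06 to 4.72 under the same settings for Adrb3, and with a rat left out from 1.15 to 4.58 and from 1.66 to 3.14.

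HDM and control rats of the same number are different animals (correlations of their deviations from 0.0974 to 0.591 in adipose tissue and from −0.0779 to 0.0457 in lung). The adipose tissue and lung of the same rat, the pairing used for the tissue comparison, had correlations from −0.104 to 0.113. With the replicate number as a block 0 genes were called in either tissue, and Adrb3 in adipose tissue was 1.38. Without the rat as a block in the tissue comparison, the same 2 genes differed in level. Signals near background (Ucp1, Elovl3, Dio2 and Ppargc1a in adipose tissue, Dio2 in lung) show no absence of a change.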
